A study of Mus musculus with 6 samples.

Results

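The genes described here are 45 imprinted genes of the mouse that lie outside the H19-Igf2 and Dlk1-Dio3 clusters. They were chosen by gene symbol, as known imprinted genes, from 24288 symbols in the count table, and each gene is represented by its entry with the most reads over the 6 libraries. They fall into 18 domains. By known expressed allele, 22 genes are classed as paternal, 20 as maternal and 3 (Gnas, Ddc and Inpp5f) as depending on the promoter or the tissue. Some genes of the paternal and maternal classes are imprinted only in certain tissues, such as the placenta, other extra-embryonic tissue or neurons. Grb10 is classed as maternal, as in most tissues, but is paternal in neurons. These allele classes are textbook knowledge of the genes. Reads were not assigned to alleles here, so every value is the sum over both parental copies.

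The study measured total RNA, depleted of ribosomal RNA, in epiblast-like cells (EpiLCs), a culture model of the epiblast shortly after implantation. Embryonic stem cells (ESCs) were taken from medium with LIF and inhibitors of Mek (PD0325091, as the labels spell it) and Gsk3 (CHIR99021) and cultured for 2 days in N2B27 with Fgf2, Activin A and KSR on fibronectin. The wild-type (WT) group was 3 differentiations of the CCE line, strain 129/Sv//Ev. The Smad2/3 double knockout (DKO) group was 3 differentiations of the single clone KT15.1F6, of the same strain, made from an ESC line homozygous for the Smad2 tm1Rob allele by deleting Smad3 exon 1 with the Cas9 nickase. Smad2 and Smad3 carry the signal of Activin and Nodal receptors to the nucleus, and the comparison asks what their loss does to gene expression while Activin A is present. Since each genotype is 1 line, p-values measure the spread between differentiations, and an effect of the knockout and a difference between the lines cannot be told apart.

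Imprinted genes are expressed mainly from 1 parental allele, in most cases as set by differential DNA methylation that is laid down in the germ line. An imprinting control region usually governs a cluster of genes, often through a long non-coding RNA that silences neighbouring protein-coding genes in cis. Many paternally expressed members promote growth of the fetus and placenta, and several maternally expressed members, such as Grb10, Cdkn1c and Phlda2, restrain it.

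The 6 libraries held 57644143 to 63046034 reads in 1 entry per gene, and values below are normalized reads, that is reads divided by the library's size factor (1.76 to 1.93). Smad3 fell from 839 ± 37.0 to 23.6 ± 6.16 normalized reads (mean ± SD over 3 libraries, as throughout), and its log2 fold change was -5.12 ± 0.13 (± SE, as throughout; adjusted p = 4.40e-23 by limma). Smad2 stood at 4520 ± 86.3 and 5062 ± 109. Counts over the whole gene do not isolate the targeted Smad2 exon. Among markers of EpiLCs, Fgf5 and Pou3f1 fell and the other 3 of 5 did not pass both thresholds. By adjusted p, Otx2 was higher in DKO (3596 ± 117 and 4219 ± 53.8), while Dnmt3b and Pou5f1 were lower. The summed level was 102928 to 106638 in WT and 94730 to 95940 in DKO, most of it Dnmt3b (70390 ± 1336 and 65421 ± 388). Of the 8 trophoblast markers, 7 were tested and all 7 rose, with a summed level of 142 to 164 in WT and 644 to 767 in DKO. Tfap2c made up much of that sum (67.5 ± 1.14 and 390 ± 51.3). The marker not tested, Elf5, was near 0 in both groups (0.716 ± 1.24 and 1.04 ± 1.80). Naive pluripotency markers rose in 4 of 5, summing to 2499 to 2631 in WT and 3834 to 3912 in DKO, and 1 of 5 tested markers of extra-embryonic endoderm rose (60.2 to 90.7 and 88.8 to 105). Markers of neurons fell in 3 of 5 (1335 to 1416 and 1097 to 1172), and 1 of 5 of fibroblasts fell (296 to 331 and 214 to 250). No marker was at 0 in all libraries. In such bulk samples, fewer cells of a type and less RNA per cell cannot be told apart.

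Of the 45 imprinted genes, 44 passed the filter on low values and 11 of these changed, with an adjusted p under 0.05 by limma over all entries and a fold change over 1.5. That is 25.0% of the tested members beside 15.4% of all 17038 tested genes. Peg3, Peg10, Sgce, Airn, Nnat, Peg13, Rasgrf1, Zim1 and Ascl2 rose, 9 members beside 7.34% of all genes. Grb10 and Calcr fell, 2 members beside 8.03% of all genes. By adjusted p alone, 33 of 44 members passed (75.0%, 23 higher and 10 lower in DKO), beside 53.6% of all genes. Passing by adjusted p depends on read depth, and all genes were not matched to the members for depth. WT and DKO libraries did not overlap in 33 of 44 members, beside 59.0% of all genes. The median log2 fold change was 0.16 over the members and 0.00 over all tested genes. Kcnk9, a potassium channel gene expressed from the maternal allele in brain, had 0 reads in all 6 libraries, which allows up to 3 reads in each by counting error alone.

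**Figure D1:**
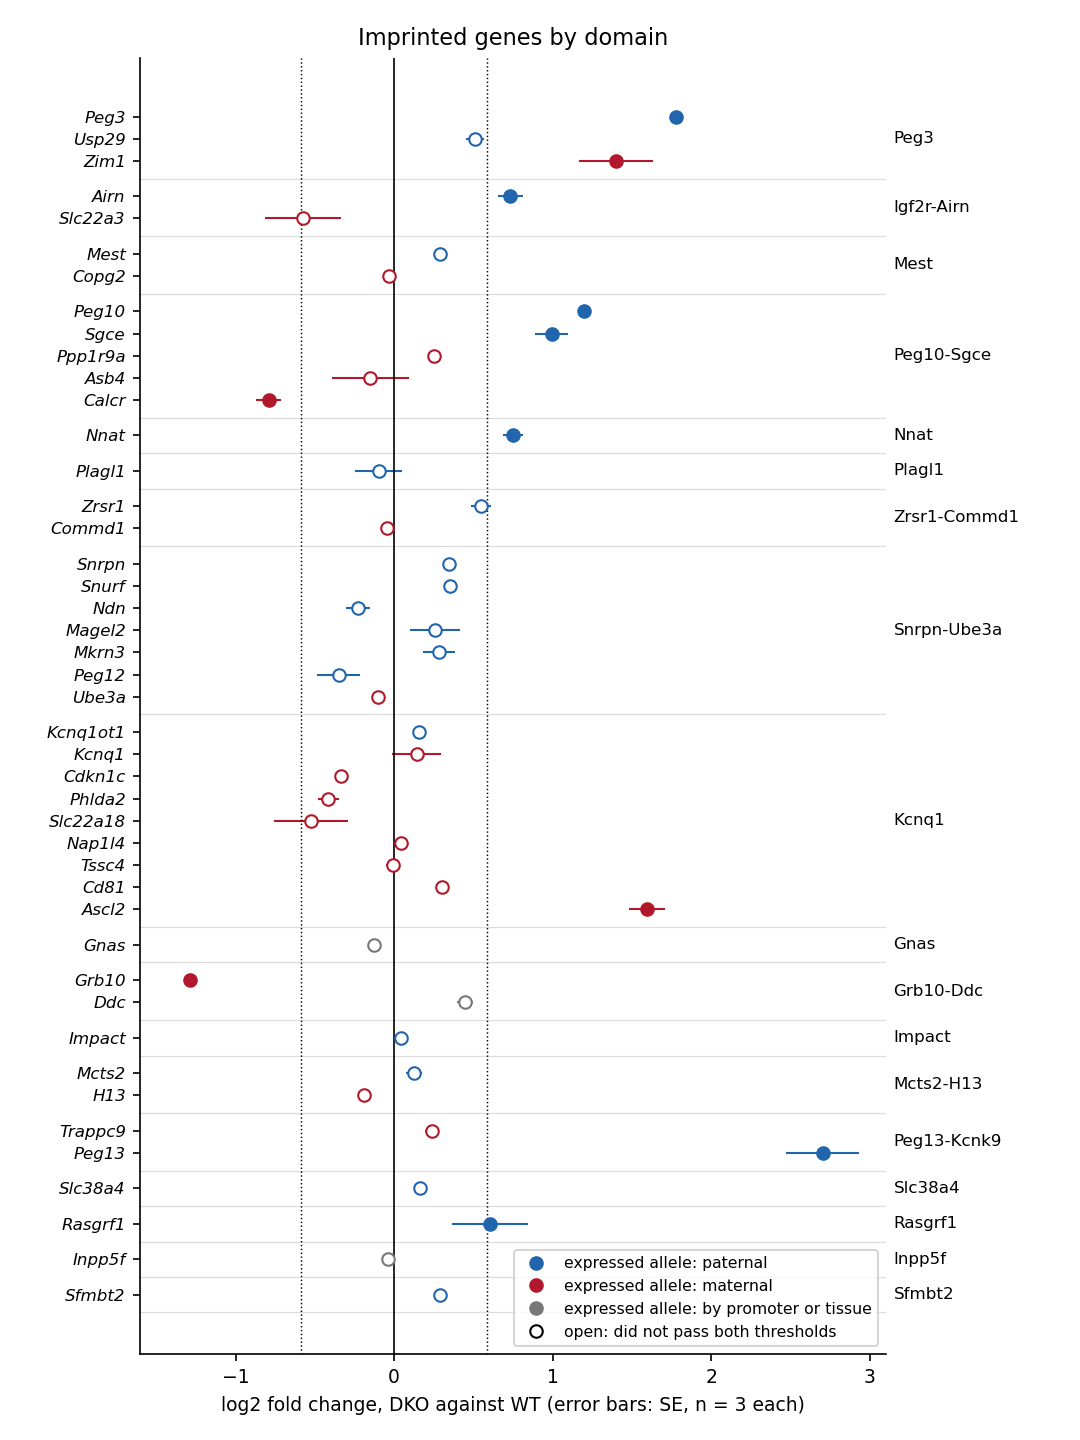
Log2 fold change of DKO against WT (horizontal axis) for the 44 tested imprinted genes, grouped by domain, with SE bars (n = 3 each); dotted lines mark the fold threshold of 1.5, filled points passed both thresholds and colours give the expressed allele. Peg13, Peg3 and Ascl2 lie farthest to the right, at 2.70, 1.78 and 1.59, and Grb10 farthest to the left, at -1.29.

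**Figure D2:**
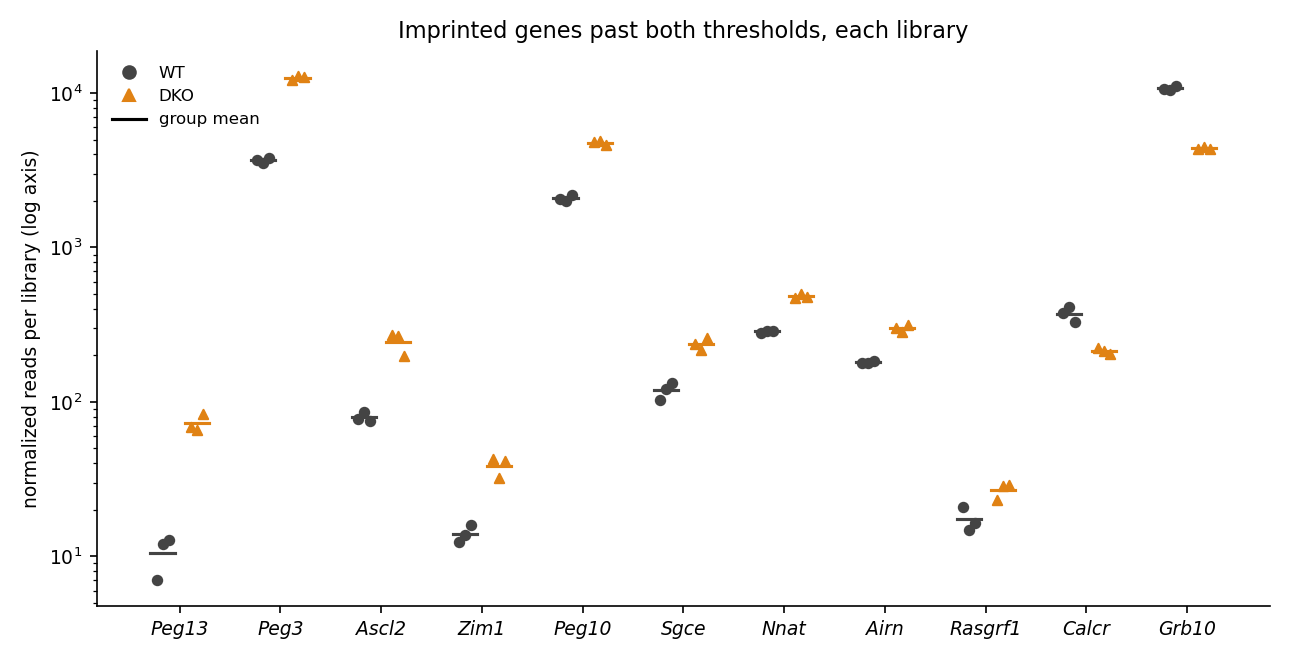
Normalized reads in each library (vertical log axis) for the 11 imprinted genes past both thresholds, with WT as grey circles, DKO as orange triangles and a line at each group mean. No WT library overlaps a DKO library in any of the 11 genes, and the gap is narrowest for Rasgrf1.

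The Peg3 domain on chromosome 7 held the largest rise among abundant members. Peg3, a zinc finger protein of the paternal allele (NM_008817, mm10, 6703892 to 6730462, minus strand), had 3661, 3541 and 3793 normalized reads in the WT libraries and 12123, 12897 and 12733 in the DKO libraries. Every DKO library was over 3 times every WT library, and the log2 fold change was 1.78 ± 0.03 (adjusted p = 6.12e-27 by limma). Usp29, a deubiquitinating enzyme transcribed from the same region in the opposite direction, averaged 451 ± 18.3 normalized reads in WT and 642 ± 27.8 in DKO (0.51 ± 0.06 on the log2 scale, adjusted p = 1.29e-08), under the fold threshold. Reads of Peg3 were 8.14 ± 0.435 times those of Usp29 in WT and 19.6 ± 0.555 times in DKO, without overlap of the libraries.

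Zim1, a zinc finger gene of the maternal allele in the same domain, rose although the domain's other members here are paternal. Its WT libraries held 12.4, 13.7 and 16.0 normalized reads and its DKO libraries 42.5, 32.0 and 41.5. All DKO libraries lay above all WT libraries at this low depth (log2 fold change 1.40 ± 0.23, adjusted p = 8.84e-06). Zim1 (6674444 to 6696540) lies downstream of Peg3 on the same strand, and reads of Peg3 were 264 ± 29.9 times those of Zim1 in WT and 332 ± 62.4 times in DKO. Whether transcripts running past the end of Peg3 add to Zim1 was not tested.

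The promoter windows of 4 domains with changed members are shown, 250 bases before to 50 bases after the transcript start, from RefSeq on GRCm38.p6. Capitals mark TGCCGC on either strand (GCGGCA when read in the other direction), the hexamer that the imprint-protecting factor Zfp57 is known to bind when methylated. Peg3 (chr7:6730370-6730669, minus strand) has no match, Zim1 (chr7:6696383-6696682, minus strand), Nnat (chr2:157559828-157560127, plus strand) and Grb10 (chr11:12037371-12037670, minus strand, from which its longest transcripts start) have 1 each, and Ascl2 (chr7:142969215-142969514, minus strand) has none. The other window of Grb10, at the start of a shorter transcript (chr11:12027922-12028221), has no match and is not shown.
Peg3: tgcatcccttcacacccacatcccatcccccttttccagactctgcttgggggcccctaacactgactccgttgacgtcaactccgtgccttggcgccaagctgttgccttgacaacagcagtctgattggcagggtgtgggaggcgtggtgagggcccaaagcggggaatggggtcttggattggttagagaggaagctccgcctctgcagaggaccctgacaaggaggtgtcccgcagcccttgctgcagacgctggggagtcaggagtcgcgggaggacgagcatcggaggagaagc
Zim1: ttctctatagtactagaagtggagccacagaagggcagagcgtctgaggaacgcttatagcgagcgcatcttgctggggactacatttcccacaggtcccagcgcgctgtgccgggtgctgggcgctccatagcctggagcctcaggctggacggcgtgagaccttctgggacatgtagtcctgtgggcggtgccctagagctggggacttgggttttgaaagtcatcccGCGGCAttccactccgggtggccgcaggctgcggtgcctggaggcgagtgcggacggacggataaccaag
Nnat: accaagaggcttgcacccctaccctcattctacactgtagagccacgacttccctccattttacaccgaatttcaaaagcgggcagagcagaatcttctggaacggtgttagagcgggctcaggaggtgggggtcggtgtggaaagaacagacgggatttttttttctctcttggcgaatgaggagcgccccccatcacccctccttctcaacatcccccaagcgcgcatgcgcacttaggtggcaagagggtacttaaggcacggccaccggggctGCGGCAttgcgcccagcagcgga
Ascl2: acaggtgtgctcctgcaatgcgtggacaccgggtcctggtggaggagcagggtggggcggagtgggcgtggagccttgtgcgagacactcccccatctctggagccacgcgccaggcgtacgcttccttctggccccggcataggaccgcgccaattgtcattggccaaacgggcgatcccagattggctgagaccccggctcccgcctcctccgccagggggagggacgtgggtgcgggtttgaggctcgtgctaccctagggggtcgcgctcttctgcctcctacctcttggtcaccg
Grb10: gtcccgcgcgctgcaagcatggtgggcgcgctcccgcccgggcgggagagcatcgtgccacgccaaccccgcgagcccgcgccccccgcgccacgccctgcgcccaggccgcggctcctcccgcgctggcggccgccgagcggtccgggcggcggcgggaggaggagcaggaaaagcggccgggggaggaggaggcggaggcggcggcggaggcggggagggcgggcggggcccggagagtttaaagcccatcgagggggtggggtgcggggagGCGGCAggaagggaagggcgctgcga

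The windows differ in CG dinucleotides, with 13 in that of Peg3, 20 in Zim1, 17 in Nnat, 23 in Ascl2 and 45 in the window of Grb10 shown (9 in its other window). RefSeq windows were found for 36 of the 45 members, 52 windows in all, and Trappc9, Peg13, Peg10, Nap1l4, Cdkn1c, Kcnk9, Kcnq1, Impact and Sgce had none. The hexamer occurred in 11 of the 52 windows (21.2%), beside 11.6% of all 32851 windows. Mest windows starting at 30737800 and 30737803 nearly coincide, and both were counted. The median number of CG dinucleotides was 15 in member windows and 7 in all windows. The hexamer itself contains a CG, and the 2 shares were not matched for CG. Among members that changed, Zim1, Nnat, Calcr and Grb10 have the hexamer in a window. It also occurs at Mest, Snrpn with Snurf, Plagl1, Mcts2, Copg2 and Commd1, none of which changed. A match here is a run of letters and not a measured binding site. Windows were set by transcript starts and not by the imprinting control regions, in which matches were not counted.

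The Peg10-Sgce domain on chromosome 6 moved in both directions. Peg10, a gene derived from a retrotransposon and needed for the placenta (NM_001040611, 4747306 to 4760517), held 2062, 1985 and 2183 normalized reads in WT and 4838, 4888 and 4581 in DKO. Every DKO library was over 2 times every WT library, and the log2 fold change was 1.20 ± 0.03 (adjusted p = 1.84e-21). Sgce, which encodes epsilon-sarcoglycan and starts beside Peg10 on the other strand, had 103, 122 and 133 in WT against 238, 216 and 260 in DKO (log2 fold change 0.99 ± 0.10, adjusted p = 3.54e-09). These paternal neighbours kept a similar proportion, 17.6 ± 2.11 reads of Peg10 per read of Sgce in WT and 20.2 ± 2.49 in DKO.

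The maternal members of that domain showed other values. Calcr, the calcitonin receptor, fell from 374, 412 and 329 normalized reads to 223, 214 and 203, with all DKO libraries below all WT libraries (log2 fold change -0.79 ± 0.08, adjusted p = 2.66e-09). Ppp1r9a, the actin-binding scaffold neurabin, stood at 2175 ± 27.1 and 2589 ± 98.1 (0.25 ± 0.03, adjusted p = 3.87e-07), under the fold threshold. Asb4, a substrate adaptor of ubiquitin ligases, had 30.1 ± 7.67 and 27.5 ± 8.61 (adjusted p = 0.624) with overlapping groups.

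The Kcnq1 domain on chromosome 7 is governed by Kcnq1ot1, a non-coding RNA of the paternal allele that lies antisense within Kcnq1. Its maternally expressed end gene Ascl2, a basic helix-loop-helix factor needed for the placental spongiotrophoblast, was 1 of 9 members in the domain and changed. Ascl2 (NM_008554, 142966822 to 142969264) held 77.4, 86.5 and 75.7 normalized reads in WT and 270, 267 and 199 in DKO. The lowest DKO library was still over 2 times the highest WT library, and the log2 fold change was 1.59 ± 0.12 (adjusted p = 1.93e-12). The 7 tested trophoblast markers given above moved in the same direction, and their part in this result was not tested. Th and Tspan32, the neighbours of Ascl2, also rose, Th from 32.2 ± 11.7 to 81.3 ± 9.23 and Tspan32 from 43.6 ± 3.82 to 111 ± 5.62 (log2 fold changes 1.36 ± 0.20 and 1.33 ± 0.14).

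Kcnq1ot1 itself stood at 2453 ± 73.1 in WT and 2737 ± 154 in DKO (0.16 ± 0.04, adjusted p = 0.000685). The growth-restraining genes on its other side were lower in DKO by adjusted p but stayed under the fold threshold. Cdkn1c, an inhibitor of cyclin-dependent kinases, had 1738, 1835 and 1871 in WT and 1448, 1522 and 1355 in DKO (-0.33 ± 0.04, adjusted p = 1.07e-07). Phlda2, which limits placental size, had 393, 394 and 401 against 293, 306 and 291 (-0.42 ± 0.07, adjusted p = 4.70e-06). Neither gene's groups overlapped. Slc22a18, a transporter gene with 33.3 ± 4.04 and 23.6 ± 7.90 normalized reads, did not pass (-0.52 ± 0.23, adjusted p = 0.0596). Without WT replicate 3 or DKO replicate 1 it passed both thresholds, at -0.62 and -0.76.

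The remaining members of the Kcnq1 domain did not pass both thresholds. Cd81, a tetraspanin of the cell surface, stood at 4401 ± 99.6 and 5435 ± 18.2 (0.30 ± 0.03, adjusted p = 1.98e-10). Tssc4 (1186 ± 17.5 and 1179 ± 54.2), Nap1l4, a nucleosome assembly protein (9120 ± 210 and 9401 ± 102), and the potassium channel gene Kcnq1 (57.0 ± 7.61 and 62.8 ± 6.63) did not pass by adjusted p (0.860, 0.139 and 0.453). Reads of Kcnq1ot1 were 43.5 ± 4.72 times those of Kcnq1 in WT and 43.8 ± 4.80 times in DKO. Whether a small share of Kcnq1ot1 reads adds to Kcnq1 was not tested.

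**Figure D3:**
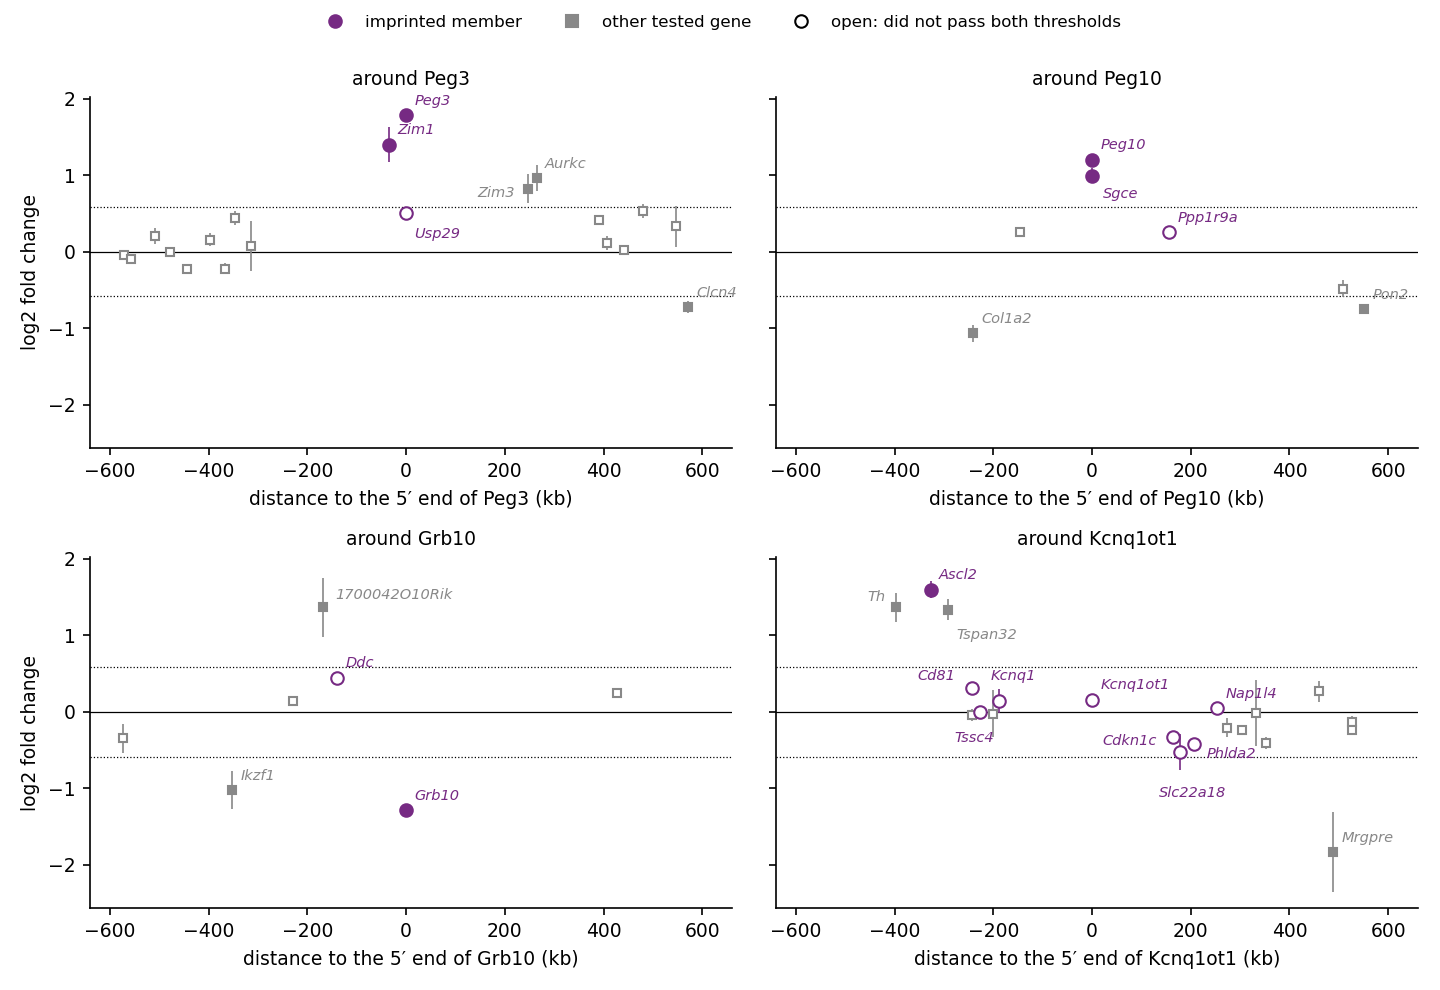
Log2 fold change with SE (vertical axis) of every tested gene starting within 600 kb of the 5′ ends of Peg3, Peg10, Grb10 and Kcnq1ot1, against distance along the chromosome in kb; purple circles are members, grey squares other genes, filled where both thresholds passed and dotted lines at a fold change of 1.5. Peg3 and Zim1, and Peg10 and Sgce, stand together above the line, Grb10 stands below the lower line at -1.29 with Ikzf1 at -1.03 in the same panel, and Ascl2 stands above the upper line with Th and Tspan32.

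Grb10, an adaptor that dampens insulin and Igf receptor signalling, is expressed from the maternal allele in most tissues and the paternal allele in neurons. It showed the largest fall. It (NM_010345, chromosome 11, 11930499 to 12037428, minus strand) had 10598, 10423 and 11174 normalized reads in WT and 4362, 4444 and 4361 in DKO. The spread within each genotype was small beside the gap, and the log2 fold change was -1.29 ± 0.03 (adjusted p = 2.14e-24). The upstream stretch held by the longer entry alone fell to a ratio of 0.322 of WT and the shorter entry to 0.413, so both parts of the gene were lower in every DKO library (no test was run on these parts). Ddc, the dopa decarboxylase gene next to Grb10 and imprinted only in some tissues, stood at 572 ± 20.4 and 781 ± 36.6 (0.45 ± 0.05, adjusted p = 2.98e-08). Reads of Grb10 were 18.8 ± 1.10 times those of Ddc in WT and 5.63 ± 0.314 times in DKO. Of the other 5 tested genes within 600 kb, Ikzf1 fell (-1.03) and 1700042O10Rik rose (1.36), and within 3 Mb the 12 other tested genes had a median log2 fold change of -0.28.

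Peg13, a non-coding RNA of the paternal allele inside an intron of Trappc9, had the largest fold change of all members, from a low level. It had 6.98, 12.0 and 12.8 normalized reads in WT and 68.3, 66.2 and 83.5 in DKO. Every DKO library held over 5 times the highest WT library (log2 fold change 2.70 ± 0.23, adjusted p = 6.60e-11). Trappc9, a subunit of a vesicle-tethering complex, is counted over introns on the same strand and so includes the Peg13 reads. The Peg13 entry can in turn hold intron reads of Trappc9. Counted per kb of gene body, the WT mean of Peg13 (2.24 ± 0.665) was close to that of Trappc9 (2.45 ± 0.0741). The DKO means were 15.4 for Peg13 and 2.88 for Trappc9. How much of the WT value of Peg13, and so of its fold change, depends on host reads was not tested. Trappc9 stood at 1153 ± 34.9 and 1360 ± 42.6 (0.24 ± 0.04, adjusted p = 1.57e-05), and without the Peg13 reads at 1143 ± 32.1 and 1287 ± 51.5 (log2 fold change 0.17).

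Airn, the non-coding RNA that silences Igf2r, Slc22a2 and Slc22a3 on the paternal allele, rose. It had 179, 178 and 184 normalized reads in WT and 303, 285 and 313 in DKO, with no overlap (0.73 ± 0.08, adjusted p = 7.54e-09). Slc22a3, an organic cation transporter gene, stood at 27.6 ± 3.38 and 18.3 ± 3.76 (-0.57 ± 0.24, adjusted p = 0.0423), just under the fold threshold. It passed both thresholds at -0.67 without WT replicate 3 and at -0.73 without DKO replicate 1. Without WT replicate 1 or 2 or DKO replicate 2 or 3, it did not pass by adjusted p (0.0937, 0.138, 0.103 and 0.132 by limma). With DESeq2 on all libraries it did not pass either (adjusted p = 0.0888). Igf2r, the receptor that clears Igf2 and that Airn overlaps in antisense, was higher in DKO by adjusted p, with 5707 ± 231 and 6935 ± 257 (0.28 ± 0.03, adjusted p = 8.64e-09).

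Nnat, a small membrane proteolipid gene in an intron of Blcap, rose from 282, 290 and 289 normalized reads to 473, 498 and 481 (0.75 ± 0.06, adjusted p = 5.13e-11). Both groups were tight and far apart. Blcap, on the other strand, stood at 820 ± 11.2 and 922 ± 33.3. Zrsr1, a splicing factor retrogene in an intron of Commd1, had 432, 376 and 385 in WT and 615, 558 and 567 in DKO, without overlap but under the fold threshold (0.55 ± 0.06, adjusted p = 2.55e-08), which it passed without WT replicate 1 (0.61). Its host Commd1, which encodes a copper and trafficking regulator, had 2074 ± 86.5 and 2010 ± 59.0 (adjusted p = 0.305). Nnat and Zrsr1, both nested and paternal, thus had log2 fold changes of 0.75 and 0.55 beside 0.17 and -0.05 for their hosts, and these pairs were not tested against each other.

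Mest and Mcts2 are also paternal genes that overlap another gene, but Mest only at its end and Mcts2 on the same strand as its host. Mest, a paternal gene of the alpha/beta hydrolase fold, stood at 7156 ± 66.0 and 8753 ± 355 (0.29 ± 0.03, adjusted p = 6.19e-10) while Copg2, a coat protein gene whose end it overlaps, stood at 2551 ± 46.5 and 2498 ± 87.9 (adjusted p = 0.458). Mcts2, a retrogene inside H13, had overlapping groups at 869 ± 52.6 and 950 ± 65.6 (0.13 ± 0.05, adjusted p = 0.0408). H13, the signal peptide peptidase gene, whose counts include Mcts2, stood at 3343 ± 128 and 2937 ± 114 (-0.19 ± 0.03, adjusted p = 3.59e-05). Without the Mcts2 reads, H13 had a DKO to WT ratio of 0.832 before the insertion and 0.774 after it, with no overlap in either stretch. None of these 4 genes passed the fold threshold.

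The Snrpn-Ube3a domain, whose human counterpart is disrupted in the Prader-Willi and Angelman syndromes, held 7 members and none changed. Snrpn, a spliceosome protein gene, stood at 7253 ± 180 and 9223 ± 137 (0.35 ± 0.03, adjusted p = 3.95e-12). Snurf shares that transcript, and its values (7210 ± 167 and 9203 ± 139) are the same reads. Ndn, a MAGE family gene, was lower by adjusted p (310 ± 8.78 and 265 ± 22.6, adjusted p = 0.0132), as was Peg12, a relative of the Wnt regulator Frat1 (83.9 ± 5.41 and 65.5 ± 2.29, adjusted p = 0.0281). Mkrn3, a ring finger gene, had 149 ± 18.0 and 180 ± 8.93 (adjusted p = 0.0197), and Magel2 had 65.9 ± 15.0 and 77.8 ± 6.72 (adjusted p = 0.166). Ube3a, a ubiquitin ligase gene imprinted in neurons, stood at 7370 ± 88.2 and 6880 ± 73.6 (-0.10 ± 0.03, adjusted p = 0.00147). Paternal members of this domain had fold changes of both signs, all under 1.5.

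Among the single-gene domains, Rasgrf1 alone passed both thresholds besides Nnat. Rasgrf1, a Ras exchange factor gene of neurons, had 21.0, 14.8 and 16.5 normalized reads in WT and 23.1, 28.4 and 29.0 in DKO. The lowest DKO library lay just above the highest WT library, and the log2 fold change of 0.60 ± 0.24 (adjusted p = 0.0348) was close to both thresholds. The call was lost without WT replicate 2 or 3 (0.50 and 0.57), without DKO replicate 2 or 3 (0.56 and 0.54) and with DESeq2 (adjusted p = 0.0789). Sfmbt2, a Polycomb protein gene needed in the placenta that holds a large microRNA cluster in an intron, stood at 6730 ± 205 and 8227 ± 302 (0.29 ± 0.03, adjusted p = 1.53e-09). Slc38a4, an amino acid transporter gene, stood at 10037 ± 261 and 11260 ± 157 (0.17 ± 0.03, adjusted p = 2.26e-06). Gnas, which encodes the stimulatory G protein alpha subunit, stood at 3407 ± 122 and 3118 ± 97.2 (-0.13 ± 0.03, adjusted p = 0.00154). Within Gnas, the stretch from the maternal Nesp start to the paternal Gnasxl start had a DKO to WT ratio of 0.919 and the stretch from the Gs-alpha start on had 0.912, both without overlap of the libraries. The stretches between them, from the Gnasxl start to exon 1A and from exon 1A to the Gs-alpha start, had ratios of 1.06 and 0.873 with overlapping libraries.

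The other 3 members did not pass by adjusted p. Plagl1, a zinc finger transcription factor gene, stood at 83.4 ± 13.3 and 78.2 ± 15.8 (adjusted p = 0.602). Impact, a translational regulator gene, stood at 18924 ± 428 and 19530 ± 597 (adjusted p = 0.124). Inpp5f, an inositol phosphatase gene, stood at 2004 ± 32.9 and 1952 ± 28.7 (adjusted p = 0.352). The log2 fold changes of these genes were -0.10 ± 0.15, 0.05 ± 0.02 and -0.04 ± 0.03 in that order.

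By expressed allele, 7 of the 22 paternal genes rose and none fell, beside 7.34% and 8.03% of all genes. A further 10 paternal genes were higher by adjusted p alone and 2, Ndn and Peg12, were lower, and the median log2 fold change was 0.32 (0.29 without Snurf, which repeats Snrpn). Of the 20 maternal genes, 19 were tested, 2 rose and 2 fell. A further 3 were higher and 5 lower by adjusted p alone, and the median was -0.05. Whatever the fold change, 17 paternal and 5 maternal genes were higher by adjusted p, and 2 and 7 were lower. Of all genes, not matched to the members for depth, 27.1% were higher and 26.5% lower by adjusted p. The 3 genes of the third class did not change. The 2 classes were not tested against each other, since the members are not replicates of a condition. With at least 100 normalized reads on average in WT or DKO, 34 members remained, of which 6 rose (Peg3, Airn, Peg10, Sgce, Nnat and Ascl2) and 2 fell. The share of all genes that changed was not computed at this level, so this count has no background beside it.

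**Figure D4:**
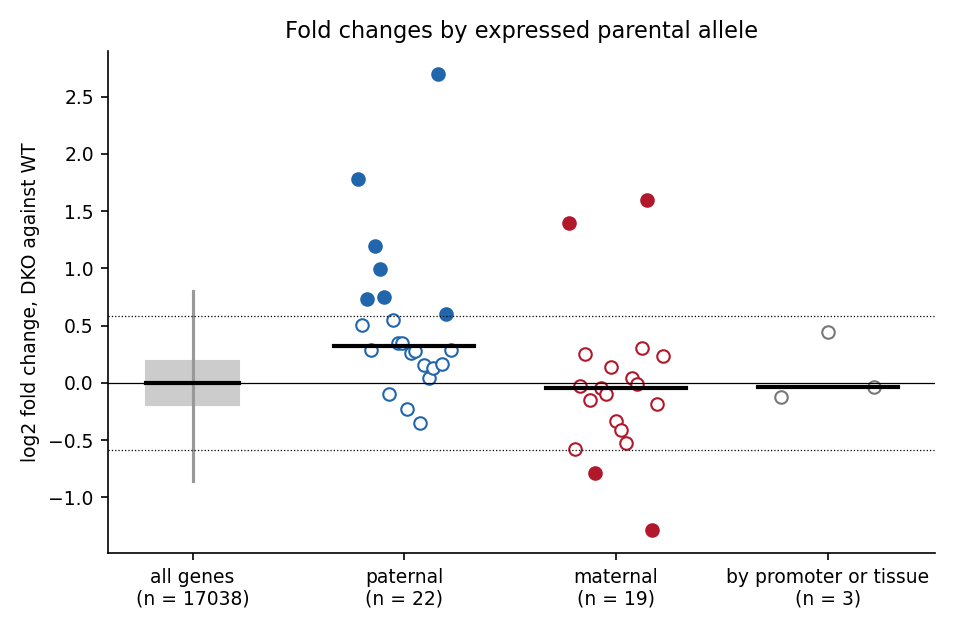
Log2 fold change of DKO against WT (vertical axis) for all 17038 tested genes (box: 25th to 75th percentile, line: 5th to 95th, bar: median) and for each tested imprinted gene by expressed allele (points; filled where both thresholds passed; bars: medians). Paternal genes have their median at 0.32 and all 7 of their filled points above 0, while the maternal class has 2 filled points on each side.

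Levels differed over several orders of magnitude between members when set per kilobase of gene body. In WT, Mcts2 (953 ± 57.7 normalized reads per kb), Impact (900 ± 20.3) and Snurf (751 ± 17.4) were highest, and Mcts2 and Impact lay within the sum of their SDs. Tssc4 (690 ± 10.2) and Cdkn1c (683 ± 25.8) did not differ beyond their spread either. Peg3 moved from 138 ± 4.75 to 474 per kb and Peg10 from 157 ± 7.54 to 361, so the order of this pair reversed, and both passed the WT level of Nnat (174 ± 2.76). Grb10 moved from 100.4 ± 3.68 to 41.1 per kb while Ascl2 moved from 32.8 ± 2.38 to 100.6. At the low end Slc22a3, Kcnq1 and Rasgrf1 stood at 0.314, 0.178 and 0.149 normalized reads per kb in WT. Introns are included in these lengths and reads, so long genes such as Snrpn (46.0 per kb, 158 kb) are lower on this scale than their mature transcripts would be.

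**Figure D5:**
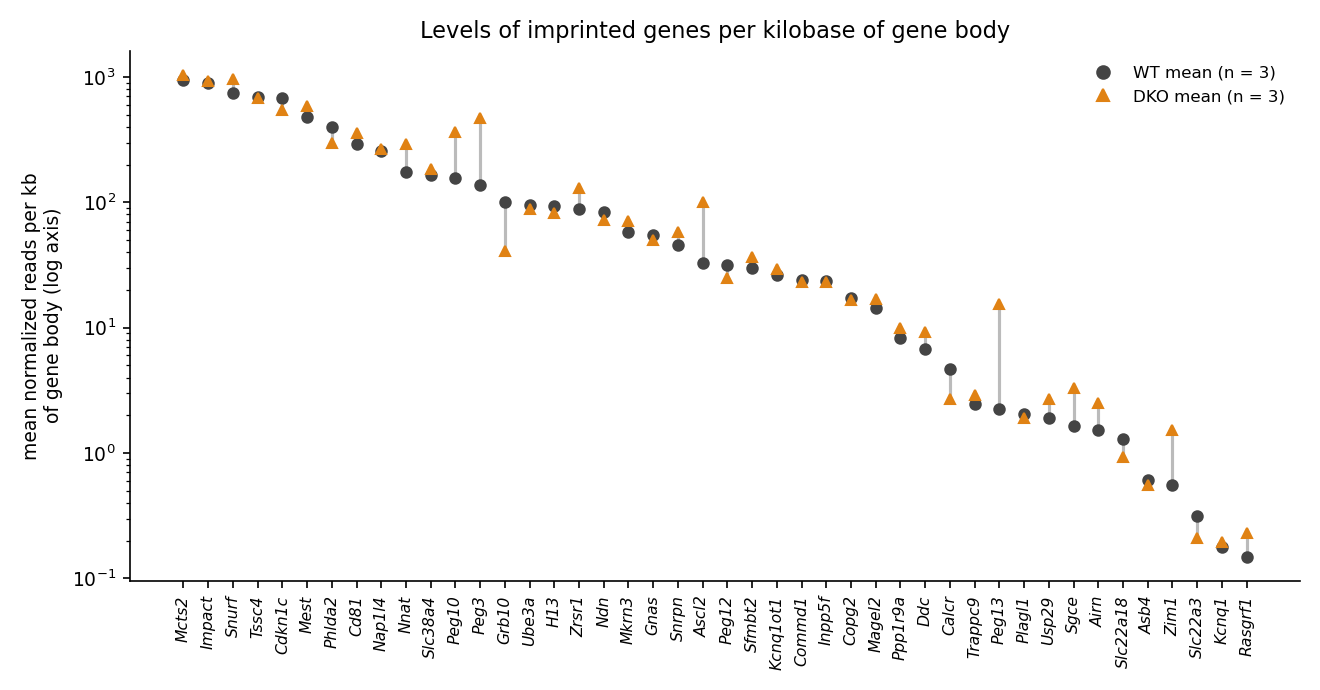
Mean normalized reads per kb of gene body (vertical log axis) in WT (grey circles) and DKO (orange triangles), n = 3 each, for the 44 imprinted genes with reads, ordered by WT level. Peg3 and Peg10 climb above Nnat's WT level in DKO, Grb10 drops, and Peg13 moves farthest along the axis.

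Of 11 genes for factors that maintain imprints, all tested, 1 rose and none fell, beside 15.4% of all genes that changed. By adjusted p alone 10 of 11 passed (90.9%, 7 higher and 3 lower), beside 53.6% of all genes, and the median log2 fold change was 0.09. All genes were not matched to this list for read depth either. The gene that rose was Dppa3 (Stella), which shields methylation in the zygote, with 142 ± 10.7 and 612 ± 55.3 normalized reads. Zfp57, the zinc finger protein that recruits Trim28 to imprinted regions, stood at 3042 ± 200 and 4395 ± 74.8 (0.53 ± 0.04, adjusted p = 3.25e-13), under the fold threshold. Its partner Trim28 and the maintenance methyltransferase Dnmt1 had log2 fold changes of 0.09 ± 0.02 and 0.09 ± 0.03.

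Of 27 genes listed as neighbours of the domains, 25 had an entry and 22 were tested. Zim3, Dlx5 (log2 fold change 2.22), Th and Tspan32 rose and Pon2 and Atp10a (-0.81) fell, that is 6 of 22 genes (27.3%) beside 15.4% of all genes, and the median log2 fold change of the list was 0.04. Zim3, a non-coding entry that overlaps the end of Usp29 on the other strand, went from 26.9 ± 0.907 to 48.5 ± 5.65 and Pon2, a paraoxonase gene at the far side of the Peg10 domain, from 790 ± 55.4 to 469 ± 6.88. Within 600 kb of the Peg3 start, 17 other genes were tested, with a median of 0.11, and besides Zim3 only Aurkc rose (0.96) and Clcn4 fell (-0.72). Around Peg10, Col1a2 (-1.07) and Pon2 (-0.75) fell among 4 other tested genes. Over windows of 3 Mb around the members, the median log2 fold change of other tested genes ran from -0.28 (Grb10) to 0.13 (18 genes around Sgce).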

How the data were processed

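Total RNA of 3 WT and 3 DKO differentiations was sequenced with a strand-specific ribosomal depletion kit (paired end). Submitters' processing notes name STAR, Bowtie2, SAMtools, DESeq2 and mm10, without versions. The deposited count table holds a signal per RefSeq entry: reads divided by 1 size factor per library by the authors. A second deposited table of the authors' own comparison (fold changes and p-values) was not used. Whole reads were recovered for 100% of values (tolerance 0.01). No sample column was left unused, and 138 rows without a symbol (0.517% of reads) were left out.

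Named entries passing filterByExpr (25361) were tested with limma 3.58.1 (R 4.3.3, mean-dependent variance trend) on log2(value + 1), which understates changes of low genes, with Benjamini-Hochberg adjustment over all entries. Genes were counted with 1 entry per symbol, the entry with the highest total. Changed means adjusted p under 0.05 and fold change over 1.5. SD is over 3 libraries, and SE is that of the log2 fold change. edgeR 4.0.16 and DESeq2 1.42.0 on recovered reads, other scalings, pseudocounts of 0.1 and 10, no filter, 1 entry per gene, a replicate block and leaving out each library were alternatives.

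The kit is stranded, and the counting was checked on the table. Where a gene with at least 200 reads lies inside an intron of another, the host held at least the nested gene's reads in every library in 164 of 168 pairs on the same strand (97.6%) and in 18 of 54 pairs on opposite strands (33.3%). Counts thus cover introns and follow strand, so H13 includes Mcts2 and Trappc9 includes Peg13, and the nested entries can hold intron reads of their hosts. Kcnq1 and Kcnq1ot1, Commd1 and Zrsr1, Airn and Igf2r, Nnat and Blcap, and Mest and Copg2 are largely counted apart. The check cannot show whether a small share of reads crosses from the other strand. Such a share would matter most for the lower gene of a pair, as Kcnq1 beside Kcnq1ot1 and Airn beside Igf2r. On simulated counts for 17038 genes, 86.4% of genes with a log2 fold of 1 and 100% with a log2 fold of 2 were called, and 1 of 16838 unchanged genes was called.

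Median coefficients of variation were 3.16% (WT) and 3.07% (DKO). Within-group pairs of libraries differed by 3.44 to 5.64 times the sampling variance, so none is a repeat of another. Libraries sharing a replicate number did not deviate together (correlations 0.00881, -0.0293 and 0.0365 over 11930 genes), so numbers were not treated as pairs. All 45 members are named, by domain. Members, lists and markers were chosen with earlier results of these data known. The windows of 3 Mb and the splits of genes into stretches were added after seeing the data, and the latter carry no test.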

Additional observations from a re-analysis of the deposited data

How the results depend on the processing

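Each member was refitted under 15 alternatives. Of the 11 members that changed, 10 kept their call in all of them. Rasgrf1 lost it in 6 (DESeq2, a pseudocount of 10, and leaving out WT replicate 2 or 3 or DKO replicate 2 or 3), with log2 fold changes of 0.43 to 0.74 and adjusted p-values of 0.0235 to 0.114 over the alternatives. Of the 33 tested members that did not change, 27 kept their direction and stayed short of both thresholds together in all. Passing by adjusted p alone was less stable. The highest adjusted p over the alternatives was 0.0684 for Ndn, 0.108 for Peg12, 0.136 for Mkrn3, 0.295 for Mcts2 and 0.138 for Slc22a3. The lowest was 0.0424 for Magel2, 0.0101 for Slc22a18 and 0.0283 for Impact, which did not pass in the main test. Slc22a3 passed both thresholds in 4 (edgeR, a pseudocount of 0.1, without WT replicate 3 and without DKO replicate 1; -0.73 to -0.41 over all alternatives), Slc22a18 in 2 (without WT replicate 3 or DKO replicate 1; -0.76 to -0.31) and Zrsr1 without WT replicate 1 (0.61). Leaving out 1 library, Asb4 ran from -0.31 to 0.13, Plagl1 from -0.26 to 0.023 and Tssc4 from -0.042 to 0.024, none past the threshold. With 1 library left out, 10 to 13 members changed, 8 to 10 higher and 2 to 4 lower, and 2533 to 2606 genes changed over the whole table. The count of lower members was 4 without WT replicate 3 and without DKO replicate 1, which added Slc22a3 and Slc22a18. With the replicate block, 11 members (9 higher, 2 lower) and 2626 genes changed, and the block changed no call of a member. Over the alternatives that keep every library, 2096 (pseudocount of 10) to 2930 genes (no filter) and 10 to 12 members changed, with the median of all genes within 0.01 of 0 on the log2 scale. Without the nested reads, H13 (-0.32) and Trappc9 (0.17) stayed under the fold threshold. At Commd1 and Kcnq1 the nested gene is on the other strand, so this was not run. Peg13, Zim1, Rasgrf1, Slc22a3, Slc22a18 and Asb4 had low counts in WT, which limits the precision of their fold changes. The cause of these dependences was not tested.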
